A study of Mus musculus with 27 samples.

Results

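The genes described here are 29 red-cell transcripts that were measured in purified mouse B cells. They were chosen because they were abundant in 4 samples of untreated spleen B cells, lower after LPS and near 0 in lymphomas, so these contrasts are given as values and not as tests. A list of 30 erythroid genes was matched by symbol to the 30735 genes of the deposited expression table, and 29 of them were found. The remaining listed member is not analysed here.

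The study sequenced RNA of B220+ B cells from mice named wt, hv, cr and co. Every hv, cr and co sample, malignant or not, is labelled as from a c-myc Igh transgenic animal, and the wt samples are not. The labels do not say what hv, cr and co stand for or what drives each transgene. Non-malignant B cells came from spleens of healthy mice, with 1 sample of each genotype untreated (resting) and 1 of each given LPS, a bacterial activator of B cells, for 2 days. Of 19 lymphomas, 12 were taken from lung and 7 from lymph nodes: hv (5 lung and 2 peripheral node), cr (3 lung and 4 mesenteric node) and co (3 lung and 1 peripheral node), with 1 more lung lymphoma titled hv and described as CO. Ages, sexes and pooling of animals were not given, so the spread between samples may be technical or biological, and p-values measure only that spread.

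Red blood cells carry haemoglobin, a tetramer of alpha and beta globin chains with haem. Their precursors make globin, haem enzymes and a specialised membrane under transcription factors such as GATA1, KLF1 and TAL1, and then lose the nucleus while much of this RNA remains. Reticulocytes (young red cells without a nucleus) still hold globin RNA, and the mouse spleen holds red blood in its red pulp and can also host red-cell formation. Mature B cells are not known for these transcripts.

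Identity of the B cells was checked first. All 10 B-cell markers examined, among them Cd79a and Ms4a1, were present in every set, with a summed level of 2963 to 5720 TPM (a transcript abundance relative to all transcripts of the sample) in resting samples, 1084 to 2230 after LPS and 1401 to 4003 in lymphomas. The approximate depth was 11531400 to 32032600 read pairs per sample. 4 libraries stood apart by the predicted gene Gm10800, which took 3.65% of all TPM in the wt resting sample, 18.6% in cr after LPS, 2.70% in hv after LPS and 3.08% in 1 cr node lymphoma, T6. Counts of calls over all genes that compare resting, LPS and lymphoma samples are given with and without them. So are the calls of a further erythroid gene list against resting samples. Other counts are given with these libraries only.

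The adult globin genes are near-identical copies, which limits how reads can be assigned between them. The coding sequences of Hbb-bs and Hbb-bt (444 bases each, from GENCODE M21 on GRCm38) differ at 1 base, C417T, and those of Hba-a1 and Hba-a2 (429 bases each) also at 1 base, C381T, counting from the A of the start codon as 1 and naming the first gene's base first. Both pairs are 99.77% identical. In the deposited GRCm38 coordinates, Hbb-bs (chr7:103826534-103828096) and Hbb-bt (chr7:103812524-103813996) are neighbours on the minus strand, and Hba-a1 (chr11:32283511-32284465), Hbq1b (chr11:32286965-32287784) and Hba-a2 (chr11:32296489-32297298) lie in that order on the plus strand. The stretches around these positions (395 to 439 in the beta genes, 359 to 403 in the alpha genes) are shown with the differing base in capitals, since a read outside it must be assigned from untranslated sequence.
Hbb-bs: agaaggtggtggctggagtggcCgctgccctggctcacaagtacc
Hbb-bt: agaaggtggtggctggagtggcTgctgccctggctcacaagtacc
Hba-a1: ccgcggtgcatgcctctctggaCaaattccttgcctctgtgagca
Hba-a2: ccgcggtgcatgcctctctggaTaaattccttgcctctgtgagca

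Promoter windows (250 bases before to 50 after a start site, RefSeq on GRCm38.p6) were found for 21 of the 29 members. On either strand, AGATAA, a sequence bound by GATA factors, was present in 10 of 21 members (47.6%) and in 12.7% of 27025 genes. CCNCNCCC, which covers the CACCC-type sequences bound by KLF1, was in 13 of 21 members (61.9%) against 51.9% of genes, so it set the members little apart. TGAGTCA, bound by NFE2 with a small MAF partner and also by AP-1, was in 4 of 21 (19%) against 5.95%. A match describes the letters of the window and not binding. No motif contains another, but matches to the KLF1-type motif can overlap each other, as in Alas2. 4 windows with an AGATAA are shown, since these genes span the roles described next, and the motif reads TTATCT where it lies on the opposite strand. The match lies 86 bases before the start of Alas2, 210 before Hbb-bs, 56 before Kel and 163 before Trim10, and capitals mark all matches to the 3 motifs.
Alas2, chrX:150547167-150547466, plus strand: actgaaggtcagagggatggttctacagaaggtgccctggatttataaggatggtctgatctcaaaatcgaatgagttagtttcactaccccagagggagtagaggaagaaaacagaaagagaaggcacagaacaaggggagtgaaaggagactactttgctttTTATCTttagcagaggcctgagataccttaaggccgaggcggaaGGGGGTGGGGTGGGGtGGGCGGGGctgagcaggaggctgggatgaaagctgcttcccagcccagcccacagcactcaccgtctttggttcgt
Hbb-bs, chr7:103827879-103828178, minus strand: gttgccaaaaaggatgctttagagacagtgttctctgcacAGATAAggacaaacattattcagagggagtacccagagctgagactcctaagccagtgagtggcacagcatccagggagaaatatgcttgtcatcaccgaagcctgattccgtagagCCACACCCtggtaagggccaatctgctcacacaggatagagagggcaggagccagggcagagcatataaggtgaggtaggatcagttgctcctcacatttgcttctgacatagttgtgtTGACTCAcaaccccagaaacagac
Kel, chr6:41704276-41704575, minus strand: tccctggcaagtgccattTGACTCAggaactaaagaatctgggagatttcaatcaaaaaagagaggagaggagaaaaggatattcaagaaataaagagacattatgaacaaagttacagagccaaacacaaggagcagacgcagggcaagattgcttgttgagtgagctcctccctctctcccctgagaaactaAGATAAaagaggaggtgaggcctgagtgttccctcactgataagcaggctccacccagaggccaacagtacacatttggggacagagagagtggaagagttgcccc
Trim10, chr17:36869324-36869623, plus strand: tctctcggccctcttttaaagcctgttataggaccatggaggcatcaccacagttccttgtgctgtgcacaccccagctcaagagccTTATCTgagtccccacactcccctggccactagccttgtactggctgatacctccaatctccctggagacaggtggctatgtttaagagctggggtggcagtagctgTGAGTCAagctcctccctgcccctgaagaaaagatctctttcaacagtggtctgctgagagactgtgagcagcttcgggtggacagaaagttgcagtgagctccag

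In the resting samples the members made up 1.21% of all TPM in wt, 5.75% in co, 11.3% in cr and 11.5% in hv. Relative to wt, their summed level was 4.76 times higher in co, 9.34 times in cr and 9.52 times in hv. The 4 main globin genes held 95.2 to 97.0% of this sum in every resting sample. Each genotype had 1 resting sample, so a difference between genotypes could not be tested and cannot be told apart from a difference between preparations. In bulk RNA, more red-cell precursors in a sample and more RNA in each cannot be told apart either.

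**Figure D1:**
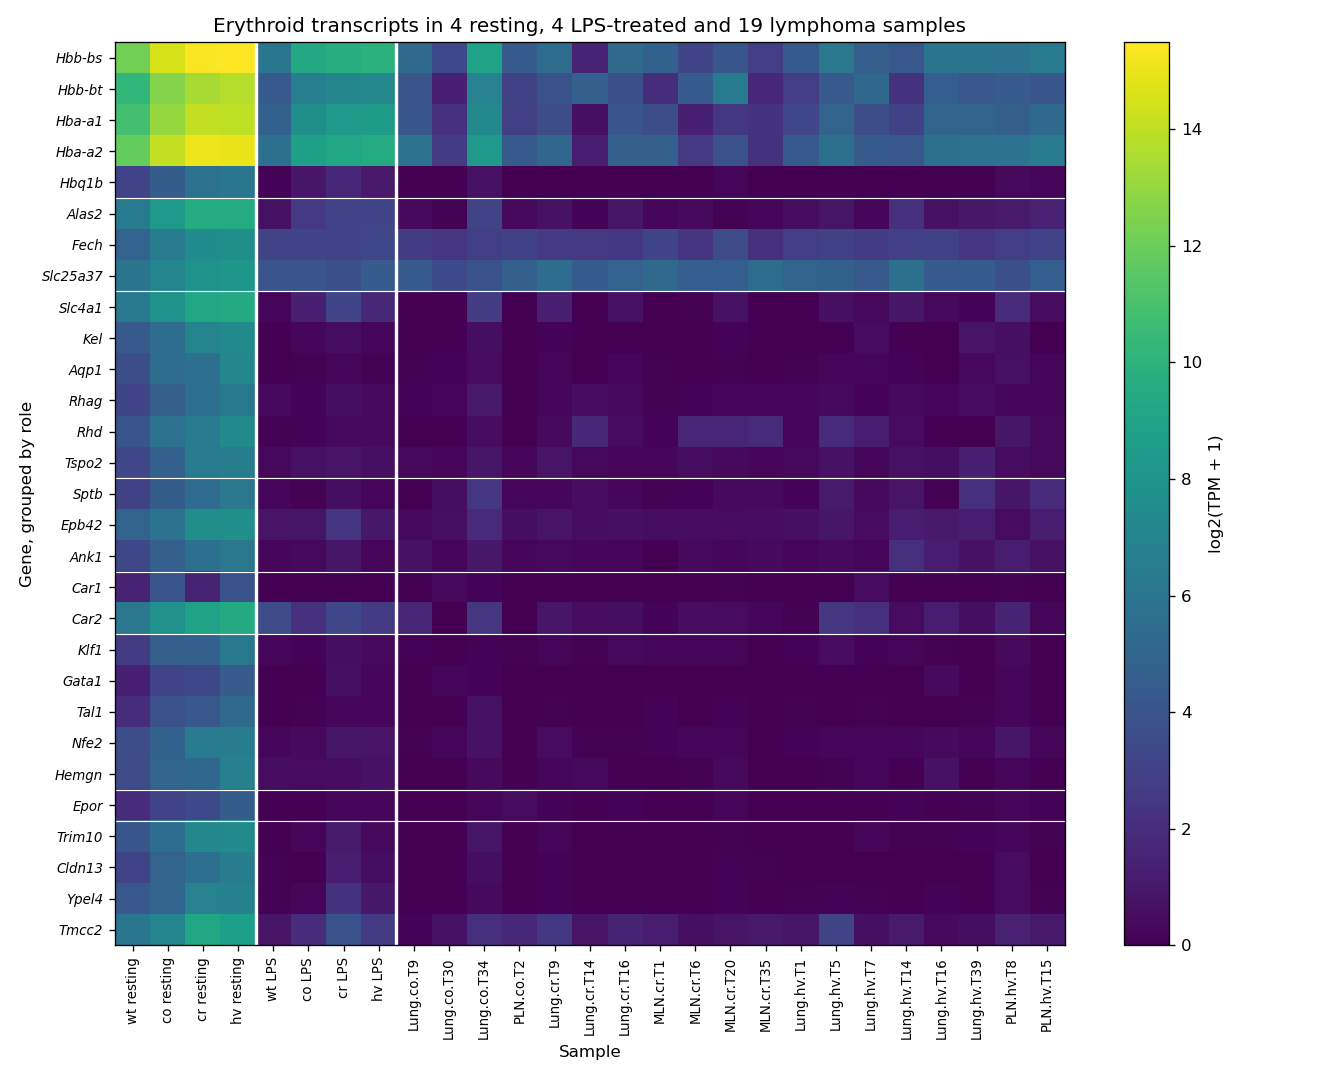
Level of each of the 29 erythroid genes (rows, grouped by role) in each of 27 samples (columns) as log2(TPM + 1), with white vertical lines between resting, LPS and lymphoma samples. The 4 resting columns are high for the whole set and lowest in wt. Among the lymphomas only the 4 main globins, Fech and Slc25a37 stay visible in nearly every column.

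Globin transcripts led the list. Hbb-bs, the main adult beta-globin gene, stood at 4737 TPM in wt, 23704 in co, 44143 in cr and 46102 in hv. Hbb-bt, the other adult beta-globin gene, stood at 1201, 6245, 11443 and 14107 TPM in the same order. All 4 samples kept the order wt, co, cr, hv for both, with cr and hv close together for Hbb-bs.

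The alpha-globin genes gave the reverse order of cr and hv. Hba-a2 stood at 3646 TPM in wt, 17342 in co, 35726 in cr and 33001 in hv, and Hba-a1 at 1899, 8456, 17309 and 16675. Beta over alpha globin, as a ratio of summed TPM, was 1.07 in wt, 1.16 in co, 1.05 in cr and 1.21 in hv. Hbq1b, a minor theta-globin gene, was far lower, at 7.75 TPM in wt, 22.7 in co, 53.9 in cr and 68.1 in hv. The embryonic globin genes Hbb-y, Hbb-bh2 and Hba-x, which are used in the yolk sac, reached at most 0.692 TPM in a resting sample, and Hbb-bh1 reached 2.01.

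Haem and iron genes were next. Alas2, which encodes the erythroid enzyme for the first step of haem synthesis, stood at 82.0 TPM in wt, 338 in co, 770 in cr and 738 in hv. Slc25a37 (mitoferrin-1), the mitochondrial iron importer, stood at 61.6, 129, 250 and 299 TPM, and Fech, which inserts iron into the haem ring, at 28.9, 80.2, 183 and 212. Slc25a37 spanned the smallest range between wt and hv of the whole set, 4.85-fold.

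Membrane genes showed the same order of samples. Slc4a1 (band 3), the chloride and bicarbonate exchanger of the red-cell membrane, stood at 75.9 TPM in wt, 238 in co, 595 in cr and 715 in hv. Kel, the Kell blood-group protein, stood at 18.9, 46.0, 128 and 162 TPM. Rhd and Rhag, the subunits of the Rhesus complex, stood at 14.95, 52.9, 80.8 and 169 TPM and at 8.49, 24.7, 49.3 and 76.8 TPM. Tspo2, an erythroid translocator protein, rested between 8.74 TPM in wt and 88.4 in hv, and the water channel Aqp1 between 12.1 and 145. Aqp1 was nearly level between co (44.1) and cr (50.02), unlike Tspo2 (26.3 and 77.9).

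The membrane skeleton lies beneath the lipid layer and is tied to band 3. Epb42 (protein 4.2), which ties them together, stood at 28.9 TPM in wt, 58.6 in co, 202 in cr and 208 in hv. Ank1 (ankyrin-1) stood at 9.43, 25.9, 50.5 and 70.9 TPM, and Sptb (beta-spectrin) at 6.88, 22.4, 42.4 and 71.0. Both carbonic anhydrases, which hydrate carbon dioxide, were present but differed. Car2 stood at 69.6 TPM in wt, 228 in co, 480 in cr and 720 in hv, whereas Car1 stood at 1.88, 15.1, 1.88 and 14.2. Car1 was thus the 1 member in which cr matched wt and co was highest.

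Regulators were present at lower levels than globins, Alas2 and Slc4a1. Klf1, a zinc-finger activator of the beta-globin genes, stood at 5.74 TPM in wt, 24.96 in co, 25.8 in cr and 73.8 in hv. Gata1 stood at 1.54, 7.76, 9.11 and 21.0 TPM, Tal1 at 3.11, 13.1, 17.7 and 39.6, and Hemgn, a nuclear protein of blood-forming cells, at 10.7, 30.9, 35.1 and 108. In all 4 of these genes hv lay well above cr, and cr lay close to co. Nfe2, which encodes the large subunit of the NF-E2 factor, followed the abundant genes instead, at 11.6, 26.6, 82.0 and 95.7 TPM. Epor, the erythropoietin receptor, stood at 2.85, 7.98, 9.99 and 23.1 TPM.

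The last 4 members are erythroid-enriched genes of other kinds. Tmcc2, a transmembrane coiled-coil protein, stood at 67.8 TPM in wt, 128 in co, 593 in cr and 432 in hv, and Ypel4 at 17.5, 30.5, 117 and 110. Trim10, a RING-finger protein of late red-cell maturation, stood at 16.9, 48.4, 149 and 169 TPM, and the claudin Cldn13 at 7.70, 29.6, 49.4 and 95.0. Tmcc2 had the lowest level in hv relative to cr of all members.

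Across the 4 resting samples, wt was lowest for all 29 members, and 23 members had the order wt, co, cr, hv. The 5 members that were highest in cr were Tmcc2, Hba-a2, Ypel4, Alas2 and Hba-a1, and Car1 was highest in co. Among all 11999 genes tested between LPS and resting samples, wt was lowest in 19.2% and hv highest in 9.0%, but a gene list chosen for its level in these samples cannot be read against that share. For 26 of 29 members (89.7%), each of co, cr and hv was at least 2-fold above wt with 5 TPM or more in hv, which held for 2.68% of the genes tested. The exceptions were Car1, Tmcc2 and Ypel4.

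The members did not move as 1 block between cr and hv. The hv level divided by the cr level ranged from 0.73 for Tmcc2 to 7.51 for Car1. The median of this ratio was 1.04 for the 5 globins, 1.16 for the 3 haem and iron genes, 1.41 for the 6 membrane transport and blood-group genes and for the 3 membrane skeleton genes, and 2.31 for the 5 transcription genes. Hemgn (3.07), Aqp1 (2.90), Klf1 (2.86), Gata1 (2.31), Epor (2.31), Tal1 (2.24) and Rhd (2.09) were 2-fold or more higher in hv, against 0.92 for Hba-a2. Nfe2 (1.17) lay within the range of the globins (0.92 to 1.26), so the regulators did not all differ alike. This rests on 1 sample of each genotype, and no test of it was possible.

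**Figure D2:**
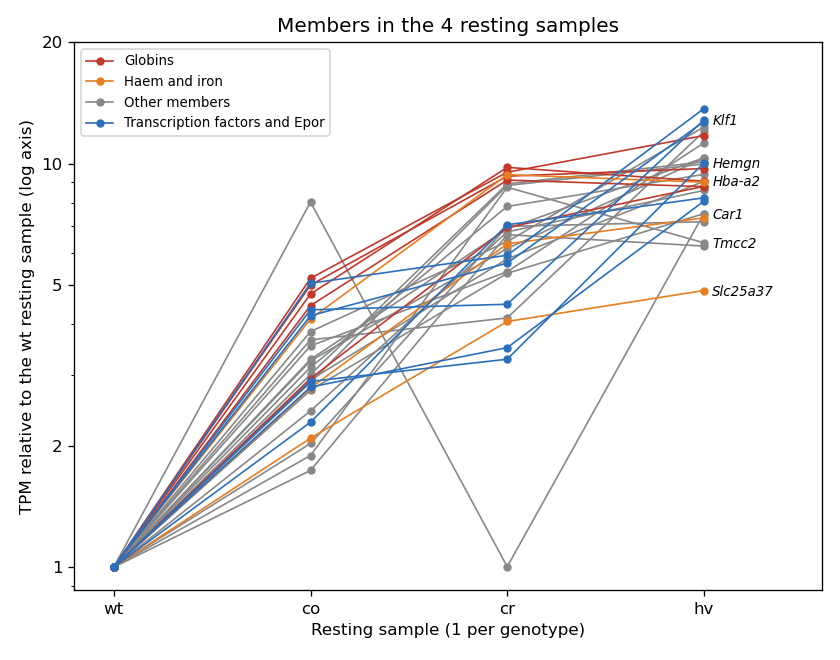
Level of each member in the 4 resting samples relative to the wt sample (log axis), with 1 line per gene: globins red, haem and iron genes orange, transcription factors and Epor blue, other members grey. The globin lines are nearly flat from cr to hv while most blue lines climb, and Car1 alone returns to the wt level in cr.

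Markers of other spleen cells varied between the same 4 samples, and their part in the member values was not tested. The summed level of 14 macrophage markers, including the red-pulp macrophage genes Vcam1, Spic and Hmox1, was 209 TPM in wt, 303 in co, 1382 in cr and 1012 in hv. The 10 platelet and megakaryocyte markers summed to 34.5, 30.6, 164 and 38.0 TPM, the 10 neutrophil markers to 27.1, 646, 81.7 and 388, and the 10 T-cell markers to 14.7, 92.8, 39.5 and 28.6. B-cell markers went the other way, from 5720 TPM in wt to 4282 in co, 3333 in cr and 2963 in hv. No marker in these lists was at 0 in all resting samples. Of the 5 early progenitor genes, Cd34 stood at 5.30 to 10.7 TPM, Myb at 2.91 to 7.98 and Kit at 1.78 to 9.26. Gata2, a factor of early blood progenitors, stood at 0.0813 to 0.179 TPM and Cpa3 at 0 to 0.348. Gata1 stood at 1.54 to 21.0.

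After 2 days of LPS the members were lower in all 4 genotypes, and for all 29 of them every LPS sample lay below every resting sample. Their summed level was 203 TPM in wt, 1448 in co, 1962 in cr and 2260 in hv, or 1.68%, 2.52%, 1.74% and 1.97% of the resting sample of the same genotype. The LPS samples thus kept the order of the resting samples: co stood 7.15 times above wt, cr 9.68 times and hv 11.1 times. Adjusted for all genes in a limma model, 29 of 29 members were called lower, where 33% of all 11999 genes were. The members were selected on this contrast, so nothing is read from that count. Summed markers of other spleen cells were lower in the same samples. The macrophage markers summed to 10.1 to 47.5 TPM after LPS against 209 to 1382 at rest. Platelet and megakaryocyte markers summed to 1.47 to 9.75 against 30.6 to 164, and neutrophil markers to 3.82 to 22.1 against 27.1 to 646. T-cell markers summed to 3.66 to 14.4 against 14.7 to 92.8. Not every single marker fell. In cr, the neutrophil marker Cxcr2 went from 4.93 to 16.3 TPM with LPS. The T-cell marker Cd5 went from 0.739 to 1.76 in cr, while Cd8a went from 25.8 to 0.869. The part of other cells in the member values was not tested.

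Globins held most of what remained after LPS. Hbb-bs stood at 65.5 TPM in wt, 642 in co, 790 in cr and 969 in hv, a log2 difference from resting of -5.68 ± 1.14 (SE, 4 samples per group). Hba-a2 stood at 52.0, 458, 636 and 733 TPM (-5.66 ± 1.13), Hba-a1 at 26.9, 207, 323 and 344, and Hbb-bt at 18.9, 98.8, 136 and 155. The wt sample was lowest in each, apart from the other 3. Hbb-bt took 13.3 to 14.7% of beta globin after LPS in co, cr and hv, against 20.2 to 23.4% in the resting samples. In wt after LPS it took 22.4%, and there Hbb-bt kept 1.57% of its resting level and Hbb-bs 1.38%. The split between the 2 beta genes depends on how reads were assigned, and its part in these shares was not tested.

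The largest log2 differences were spread over the membrane, globin and haem genes. Slc4a1 stood at 0.192 TPM in wt, 1.58 in co, 8.40 in cr and 2.28 in hv after LPS, a log2 difference of -6.58 ± 0.91 (SE). Alas2 stood at 0.623, 5.004, 7.65 and 8.46 TPM (-6.07 ± 0.91). Kel (0, 0.208, 0.43 and 0.212 TPM) gave -5.79 ± 0.64 and Trim10 (0, 0.186, 1.14 and 0.293) gave -5.68 ± 0.73. All log2 differences here are between values with 1 TPM added, so those of low genes come out too small, as for Car1 (-2.73 ± 0.62), which was listed at 0 in 3 LPS samples. The median over the 29 members was -4.78 against -0.16 over all genes tested.

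Besides the 4 main globins, 3 members kept more than 3 TPM after LPS in every genotype. Slc25a37 stood at 15.7 TPM in wt, 15.7 in co, 12.6 in cr and 20.5 in hv, and Fech at 8.10, 8.28, 7.51 and 8.77. Neither followed the order of the resting samples: after LPS the 4 genotypes were nearly level, while in resting samples hv was 4.85-fold and 7.34-fold above wt. The carbonic anhydrase Car2 went against that order, at 11.2 TPM in wt, 3.29 in co, 8.69 in cr and 5.19 in hv, so that wt kept 16.1% of its resting level and hv 0.721%.

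Members other than globins were often highest in cr after LPS. cr was the highest LPS sample for 18 members and hv for 10, and wt was the lowest for 21. Tmcc2 stood at 0.729 TPM in wt, 2.99 in co, 14.2 in cr and 5.17 in hv, Ypel4 at 0.0794, 0.174, 3.91 and 0.961, and Epb42 at 0.725, 0.852, 4.00 and 1.03. In each of these 3 genes the cr sample stood above the other LPS samples. The cr library is also the one with 18.6% of its TPM in Gm10800, and 16 of the 29 members had a mean under 1 TPM after LPS.

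**Figure D3:**
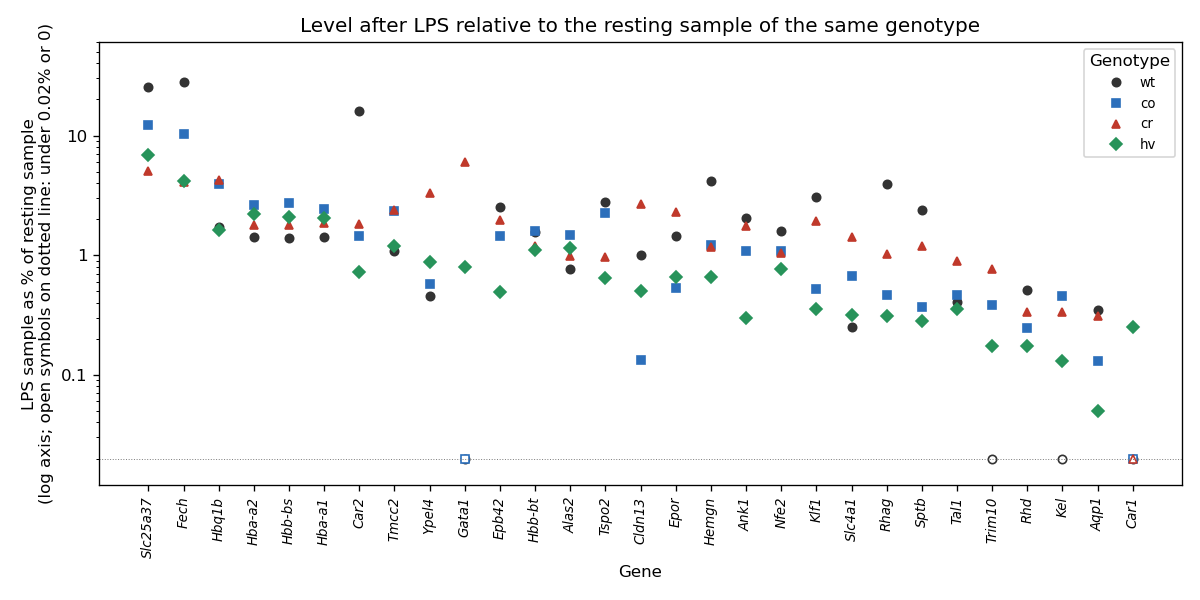
Level of each member after LPS as a percent of the resting sample of the same genotype (log axis), with 1 symbol per genotype and genes ordered by the percent of group means. Most points lie between 0.1 and 5%, the 4 main globins reach at most 2.71%, and Slc25a37, Fech and Car2 hold the highest wt points at 25.5, 28.1 and 16.1%.

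In the 19 lymphomas the members summed to between 38.7 and 1169 TPM with a median of 133, and for all 29 every lymphoma lay below every resting sample. The limma model called 29 of 29 lower, where 17.4% of the 13239 genes tested were lower and 31.9% were called in either direction, and the selection again leaves nothing to read from the count. The median log2 difference was -5.08 over the members and -0.06 over all genes, with a range of -9.51 (Hbb-bs) to -2.62 (Slc25a37). The resting samples are shared by this comparison and the one with LPS. For 22 members the lymphoma median was under 1 TPM.

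The members were near 0 but not uniformly absent. Hbb-bs ran from 1.87 TPM through a median of 27.3 to 514, and Hba-a2 from 1.48 through 25.6 to 317. Both extremes stood alone: the highest value of each was in the co lung lymphoma T34 and the lowest in the cr lung lymphoma T14. Other members were listed at 0 in many lymphomas: Hbq1b in 15 of 19, Cldn13 in 14, Gata1 and Car1 in 13 each, and Kel in 11. Klf1 did not pass 0.359 TPM in any lymphoma, nor Epor 0.356.

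The co lung lymphoma T34 had the highest level of 13 of the 29 members. Its 1169 TPM were followed by 258 TPM in the hv node lymphoma T15. None of the 29 members was listed at 0 in co T34, nor in the hv node lymphoma T8, where they summed to 200 TPM. Besides the 4 globins, co T34 held the highest lymphoma values of Alas2 (8.20 TPM), Slc4a1 (5.79), Sptb (4.40), Epb42 (2.80) and Rhag (1.11). It also held those of Trim10 (0.839), Hbq1b (0.627), Tal1 (0.595) and Cldn13 (0.472). Its macrophage markers summed to 104 TPM, the highest of the lymphomas, and its T-cell markers to 118, the second highest. The part of other cells in these values was not tested.

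Fech and Slc25a37 were the exceptions with a level in every lymphoma. Fech ran from 3.36 TPM through a median of 6.11 to 10.7, which overlaps the LPS samples (7.51 to 8.77). Slc25a37 ran from 10.2 through 24.2 to 52.6 TPM, and its median lay above every LPS sample (12.6 to 20.5). No other member had a lymphoma median above 2 TPM apart from the 4 globins. Haem and mitochondrial iron are used by most cells. Which cells gave the Fech and Slc25a37 values was not tested.

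Among the lymphomas, alpha globin followed Hbb-bs closely and most other members did so less. Over the 19 lymphomas, log2(TPM + 1) of Hbb-bs had a Pearson r of 0.98 with Hba-a2 and with Hba-a1, 0.72 with Alas2 and 0.69 with Slc4a1, but 0.46 with Hbb-bt, -0.25 with Slc25a37 and -0.40 with Rhd. Without T34, r was 0.98 and 0.97 for the alpha globins, 0.50 for Alas2, 0.45 for Slc4a1 and 0.23 for Hbb-bt. These values describe 19 samples and come with no test. The non-members closest to Hbb-bs over the lymphomas were Gipc1 (0.80), Vwa5a (0.80), Tcn2 (0.79), Gm14388 (0.78) and Slc46a1 (0.77), and none of them is on the list of other erythroid genes.

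Hbb-bt held most of the beta globin in 4 lymphomas, a feature singled out after its values were seen. Its share of beta globin was 93.2% in the cr lung lymphoma T14, 83.1% and 71.8% in the cr mesenteric node lymphomas T20 and T6, and 58.8% in the hv lung lymphoma T7. In the other 15 lymphomas it was 9.98 to 29.0%. In the same 4 samples beta over alpha globin was 13.5, 5.51, 4.48 and 1.86, against 0.754 to 1.31 in the other 15. Because the coding sequences differ at 1 base only, the split between Hbb-bs and Hbb-bt depends on how reads were assigned, and its part in these shares was not tested.

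**Figure D4:**
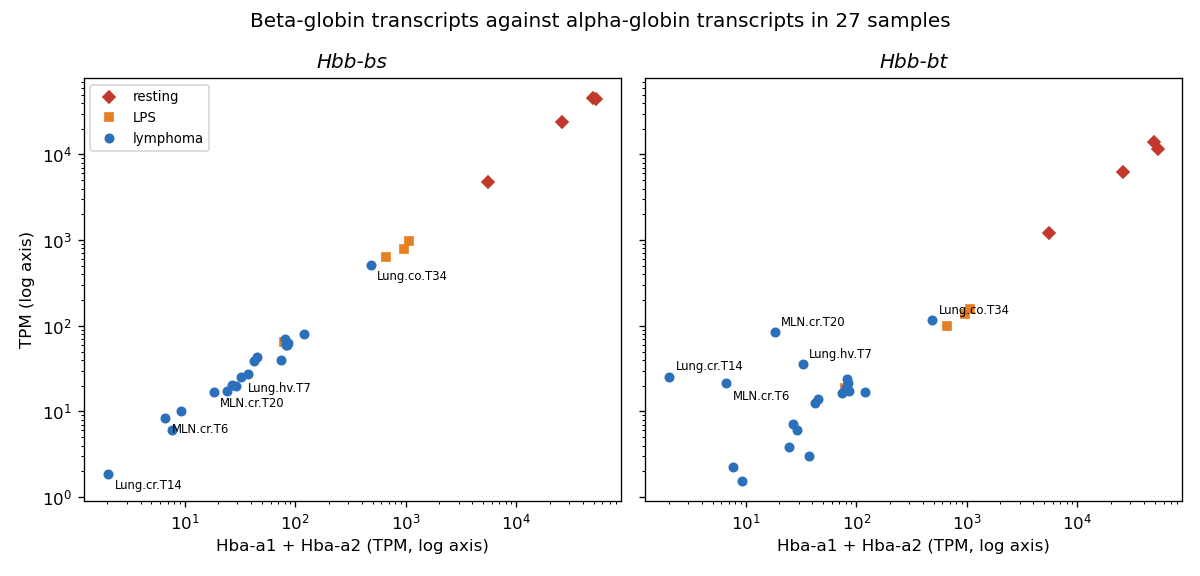
Hbb-bs (left) and Hbb-bt (right) against summed alpha globin in all 27 samples, both axes logarithmic in TPM, with resting samples as red diamonds, LPS as orange squares and lymphomas as blue circles. Hbb-bs follows alpha globin from the lowest lymphoma to the resting samples, while Hbb-bt of Lung.cr.T14, MLN.cr.T20, MLN.cr.T6 and Lung.hv.T7 lies above the trend.

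Some non-globin members had their own highest lymphoma. Rhd stood at 2.80 TPM in the hv lung lymphoma T5, 2.49 in the cr lung lymphoma T14 and 2.03 to 2.68 in the cr node lymphomas T35, T6 and T20, while the fourth cr node lymphoma, T1, stood at 0.103. Tmcc2 reached 8.10 TPM in the hv lung lymphoma T5, and Ank1 3.32 in the hv lung lymphoma T14. The hv lung lymphoma T5 had the highest lymphoma value of 4 members in all (Rhd, Tmcc2, Car2 and Klf1) and hv T14 of 2 (Ank1 and Slc25a37), with 226 and 118 TPM over all members.

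Site and line of the lymphomas, which the choice of members did not use, gave no call among them. Of the 29 members, 12 passed the expression filter in 18 lymphomas (the one with conflicting line labels was left out), and limma with Benjamini-Hochberg adjustment called none of the 12 between node and lung (adjusted p 0.929 to 0.998) or between cr and hv (adjusted p 0.546 to 0.982). Over all 12480 genes, 2 (0.016%) were called between sites, 1 higher (0.00801%) and 1 lower (0.00801%), and 0 (0%) between lines, and 721 and 1140 had an unadjusted p under 0.05. Of the 12 members, 0 and 2 did, the 2 being Hba-a1 and Hba-a2 in the line comparison. The cr minus hv difference was -1.75 ± 0.79 (SE, log2) for Hba-a2, -1.66 ± 0.75 for Hba-a1 and -1.45 ± 0.80 for Hbb-bs, against -0.06 ± 0.84 for Hbb-bt. Hbb-bs ran from 6.10 to 27.3 TPM in the cr node lymphomas, 1.87 to 42.9 in the cr lung lymphomas (median 39.3), 17.4 to 70.6 in the hv lung lymphomas, and 59.4 and 79.8 in the hv node lymphomas. None of these differences passed the test after adjustment.

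Between lymphomas and LPS samples, which holds no resting sample, 14 of 29 members passed the filter. Of these, 6 were lower and 0 higher in lymphomas, where 8.56% and 5.27% of 12880 genes were: the 4 globins, Alas2 and Car2. Hbb-bs differed by -3.83 ± 0.85 (SE, log2), Hba-a2 by -3.69 ± 0.87, Car2 by -2.05 ± 0.42 and Alas2 by -1.63 ± 0.44. Fech (-0.41 ± 0.20) and Slc25a37 (0.60 ± 0.29) did not pass the test. LPS levels were part of how the members were chosen, so these values are a description.

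Erythroid genes outside the list were examined from a list of 86 measured genes drawn up from general knowledge of red-cell biology with these results known. Between LPS and resting samples 58 of the 82 that were tested fell (70.7%) and 5 rose, against 33% and 25.2% of all genes, and the median log2 difference was -1.61 against -0.16. Against lymphomas 51 of 82 were lower (62.2%) and 2 higher, against 17.4% and 14.5% of all genes, with a median of -1.43 against -0.06. Without the libraries rich in Gm10800, 49 and 43 genes were called in either direction, from 63 and 53. Over all genes, calls went from 6981 to 5531 with LPS and from 4229 to 2746 in lymphomas. Between lymphomas and LPS samples, 9 of 72 were lower (12.5%) and 1 higher, against 8.56% and 5.27% of all genes. The median was -0.18 against 0.03.

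By role, most tested genes of 3 of the 5 groups fell. Of the late-maturation genes 19 of 23 fell with LPS (82.6%), and of transcription genes 13 of 16 (81.25%). Membrane and skeleton genes fell in 14 of 19 (73.7%). Haem and iron genes fell in 8 of 16 and signalling genes in 4 of 8 (50% each), against 33% of all genes. A fall did not always go with the resting order of the members. The wt sample was lowest at rest for 20 of 23 late-maturation, 17 of 19 membrane and skeleton and 15 of 16 haem and iron genes. It was lowest for only 7 of 16 transcription and 3 of 12 signalling genes. Runx1, a transcription gene that fell, stood at 66.7 TPM in wt and 33.1 in hv at rest. Sox6, a repressor of embryonic globin, stood at 5.63 TPM in wt, 13.8 in co, 32.6 in cr and 45.6 in hv at rest and fell by 4.20 ± 0.55 (SE, log2) with LPS. Hebp1, a haem-binding protein, fell by 3.94 ± 0.52, and Bpgm, which makes the phosphate that tunes haemoglobin's oxygen affinity, by 3.50 ± 0.68. All 3 of these have wt as the lowest resting sample. In lymphomas the porphyrin exporter Abcg2 fell by 3.77 ± 0.45 against resting cells and the poly(A) polymerase Tent5c by 4.84 ± 0.70.

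Other list genes have uses in B cells and did not follow the resting order. Jak2, the kinase of the erythropoietin receptor and of many cytokine receptors, fell by 1.99 ± 0.17 with LPS and stood at 51.2 TPM in wt and 38.4 in hv at rest. Lyn, a kinase of the B-cell receptor, fell by 1.62 ± 0.24 and was highest in wt, at 244 TPM. Ppp1r15a, a stress-response gene, fell by 3.77 ± 0.21 and was also highest in wt. In the opposite direction, Myb rose by 1.19 ± 0.25 with LPS (limma adjusted p = 0.00148) and by 2.79 ± 0.83 in lymphomas (adjusted p = 0.012), while Slc29a1, a nucleoside transporter, rose by 1.18 ± 0.25 and 1.43 ± 0.45. Kit, a receptor of early progenitors, fell by 1.68 ± 0.38 with LPS from a resting level of 1.78 to 9.26 TPM.

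4 genes of the list changed direction between genotypes, from 1.5-fold or more higher in wt after LPS to 1.5-fold or more lower in hv, with 1 TPM added to each value. They were Cpox (a haem enzyme), Abcb6 (a porphyrin transporter), Gfi1b (an erythroid repressor) and Prdx2 (the red-cell peroxiredoxin), 4 of 82 (4.88%) against 0.400% of all 11999 genes. Cpox stood at 11.2 TPM in wt and 70.2 in hv at rest, and at 33.6 and 39.05 after LPS, for a log2 difference over all 4 genotypes of 0.19 ± 0.46 that did not pass the test. Prdx2 stood at 108 and 644 TPM at rest and 200 and 189 after LPS, with -0.62 ± 0.49. In these genes the LPS samples were alike and the resting samples were not. The rule that picked the genes requires hv over wt to be larger at rest than after LPS, so nothing is read from this contrast. Each genotype has 1 sample per treatment, so the difference between genotypes was not tested.

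The genes most like the members over all 27 samples were also mostly red-cell genes. By Pearson r of log2(TPM + 1) with the mean of the members, the 10 closest included Tspan33 (0.99), Tmod1 (0.99), Slfn14 (0.99), Pdzk1ip1 (0.98), Dmtn (0.98), Trim58 (0.98) and Slc22a4 (0.98). 6 of the 10 were on the list of other erythroid genes. Such r values rest largely on the gap between 4 resting and 23 other samples.

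TPM sums to the same total in each sample, so a set that fills 11.5% of one sample and nearly none of another lowers every other gene in the first. Removing the members and rescaling raised all other genes by 1.22% in wt, 6.09% in co, 12.7% in cr and 13.0% in hv at rest. On the log2 scale, the shift of LPS against resting was -0.11 and that of lymphoma against resting -0.11, while lymphoma against LPS moved by -0.0018. Of the 3 comparisons, the shift was thus seen in those with resting samples, and it was unequal between resting genotypes.

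The rescaling changed calls in both comparisons with resting samples. For lymphoma against resting, the limma model called 4229 genes, 1921 higher and 2308 lower in lymphomas, so that 45.4% were higher. After rescaling it called 4350 genes, 1522 higher and 2828 lower, or 35% higher, with 3830 genes called in the same direction both times, 399 lost and 520 gained. For LPS against resting, 6981 calls (3026 higher, 3955 lower) became 7390 (2785 higher, 4605 lower), the higher share went from 43.3 to 37.7%, and 6740 were shared. For lymphoma against LPS, 1782 genes were called both times and 1779 of them were shared. Without the libraries rich in Gm10800 and with no rescaling, LPS against resting gave 5531 calls (3071 higher, 2460 lower, or 55.5% higher), lymphoma against resting 2746 (1397 higher, 1349 lower, or 50.9% higher), and lymphoma against LPS 433. Median-of-ratios scaling gave 3645 higher and 4278 lower (46% higher) with LPS and 1820 higher and 3041 lower (37.4% higher) in lymphomas. The higher share with LPS thus moved down under 1 of these settings and up under the other 2, while in lymphomas it moved down under both scalings and up without those libraries. Without the wt resting sample the lymphoma comparison called 2749 genes before any rescaling, and without the hv LPS sample lymphoma against LPS called 821. The median over all genes went from -0.16 to -0.26 with LPS and from -0.06 to -0.16 in lymphomas.

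The members also fill the end of the ranked gene lists. Of the 20 genes with the lowest log2 difference, 12 were members with LPS and 12 in lymphomas, and of the lowest 100 genes 24 and 22 were. Between lymphomas and LPS samples 0 of the lowest 20 and 1 of the lowest 100 were. The members passed the filter of 1 TPM in 4 samples mostly through the resting group: when any 1 resting sample was left out, 15 of 29 still entered the LPS comparison and 16 the lymphoma comparison.

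**Figure D5:**
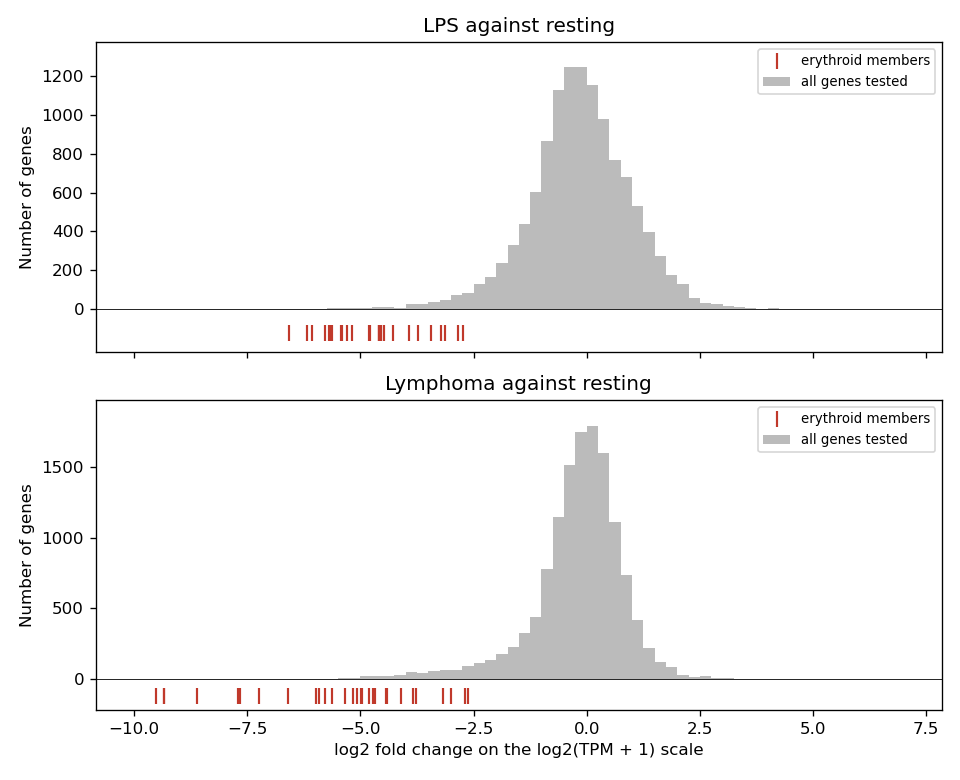
Histogram of log2 fold change on the log2(TPM + 1) scale over all genes tested (grey, 11999 genes above and 13239 below), with the 29 members as red ticks beneath the zero line. The members lie at -6.58 to -2.73 with LPS and at -9.51 to -2.62 in lymphomas, in the thin lower tail of both distributions.

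Genes outside the members were also picked by their resting genotype difference. The rule was at least 2-fold above wt in each of co, cr and hv, with 5 TPM or more in hv. Besides 26 members, 295 other tested genes (2.46%) and 29 of the 86 other erythroid genes (33.7%) met it. Of the 295, 133 were lower with LPS (45.1%) and 91 higher, against 33% and 25.2% of all genes tested. Their median was -0.83 against -0.16. The resting values that picked these genes also enter this comparison, so nothing is read from the counts.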

How the data were processed

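Total RNA of 27 samples went through ribosomal RNA removal and a stranded paired-end kit, per the labels' protocols. FastQC and kallisto 0.43 were run with build mm10 (GRCm38) according to the submitters' processing notes. The annotation and strand setting: not given in the sources used here. Reads of antisense or overlapping genes may therefore be mixed. The authors' deposited table holds TPM for 88198 transcripts, with effective lengths. TPM was summed to 30735 genes, of which 740 had no symbol. TPM keeps no depth, so read pairs were estimated from TPM times effective length (60.7 to 75.6% of low values came out whole within 0.02), for description only. A floor of 3 read pairs covers counting error only.

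The filter kept genes reaching 1 TPM in 4 or more samples of the comparison. limma 3.58.1 (R 4.3.3, trend and robust) was applied to log2 values with a pseudocount of 1, with a Benjamini-Hochberg threshold of 0.05, after a check on simulated data. The members and lists were chosen with earlier results of these data known. Every member is named. From each role of the other erythroid list the rule takes the 3 called genes with the largest change, and for likeness the 10 closest genes over all samples and the 5 closest to Hbb-bs over the lymphomas; some genes these rules pick are not reported here. Python 3.11.15 with pandas 2.3.3 and matplotlib 3.10.9 was used for the rest. Alternatives were another pseudocount, no filter, other scalings, a genotype block and leaving out samples.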

Additional observations from a re-analysis of the deposited data

Results flagged for a closer look

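Values were examined in groups of 4 or 5 samples, and in 14 of 117 such tests 1 sample lay far from the others. Where all other samples are at 0, any value above 0 is flagged, and the members vary together. The usual chance rate of about 1 in 20 therefore cannot be set against this count. After LPS, Hbb-bs was low in wt (65.5 TPM against 642 to 969 in the others). In cr after LPS, Epb42 was high at 4.00 TPM (others 0.725 to 1.03) and Ank1 at 0.885 (0.194 to 0.281), and in hv after LPS Car1 was the only sample above 0, at 0.0356.

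The cr mesenteric node lymphoma T20 was high for 4 members: Hbq1b at 0.138 TPM, Car1 at 0.0527 and Trim10 at 0.051, each with the other 3 at 0, and Slc4a1 at 0.599 (others up to 0.0604). Its neighbour T1 was low for Rhd, at 0.103 TPM against 2.03 to 2.68.

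Among hv lung lymphomas, T7 was the only one above 0 for Kel (0.345 TPM) and Car1 (0.375), and T16 the only one above 0 for Gata1 (0.29) with Nfe2 also high at 0.326 (others 0.126 to 0.180). T5 was high for Tmcc2, at 8.10 TPM against 0.273 to 1.19. All but the Hbb-bs and Tmcc2 values are under 5 TPM, and the cause was not tested.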

How the results depend on the processing

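All 29 members stayed below 0 in both comparisons with resting samples under each setting in which they entered the fit, and no result reversed. The members were chosen on these comparisons, so their direction was fixed in advance and is not a test of the settings. Without the libraries rich in Gm10800, 10 members entered the LPS comparison and 16 the lymphoma comparison. The median log2 fold change of the members, lymphoma against resting, was -5.08, and -7.52 with a pseudocount of 0.1, which is how that scale is built. Single members moved mostly with that pseudocount. For all genes, lymphoma against resting gave 4229 calls and 2746 without the libraries rich in Gm10800, an alternative chosen after seeing the data. Leaving out 1 resting sample gave 2749 (without wt) to 3222. Lymphoma against LPS gave 1782 calls, 433 without those libraries and 821 (without hv) to 1392 with 1 LPS sample left out, with 835 without co and 1103 without wt. Node against lung gave 2 calls, 0 without the filter on low values, and 0 to 14 with 1 lymphoma left out, 14 being without the hv lung lymphoma T7; cr against hv gave 0, and 1 without the filter. The cause was not tested. With genotype as a replicate block, LPS against resting gave 7250 calls against 6981 and 59 other erythroid genes against 63. Same-genotype resting and LPS samples deviated together with r of 0.036 in wt, 0.059 in hv, 0.214 in cr and 0.339 in co, and 2 of the 4 (cr and co) correlated best with their own genotype. The samples share only a genotype name, and the block changed no member's direction. Values under about 3 read pairs, common among the lymphomas, are at the limit of the depth.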

Other observations

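Some erythroid genes outside the members were high in single lymphomas. Glrx5, a mitochondrial iron-sulphur protein, stood at 535 TPM in the hv lung lymphoma T1, against 95.3 in the next lymphoma and a median of 43.3. The membrane skeleton gene Add2 stood at 14.9 TPM in the cr node lymphoma T35 against 5.43 in the next, and Cd59a, a complement regulator, at 48.4 in the hv lung lymphoma T16 against 18.6. The embryonic globin gene Hbb-bh1 reached 25.5 TPM in the cr lung lymphoma T14 and 13.7 in the next, with a median of 0.634 over the 19.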
